A study of Homo sapiens with 6 samples.

Results

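RNA polymerase II (Pol II) needs helper proteins to keep moving along a gene, and 10 genes for such proteins are described here in human U2OS cells. They are the 3 TFIIS paralogues TCEA1, TCEA2 and TCEA3, the SPT4, SPT5 and SPT6 genes SUPT4H1, SUPT5H and SUPT6H, the ELL genes ELL and ELL2, the kinase gene CDK9 and POLR2A, the gene of the largest Pol II subunit. They are 10 of the 58219 genes in the count tables. The list was chosen by gene function and on earlier results of these data, in which the difference between the groups was known. That difference is therefore given for the members as a description, with no p-value.

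U2OS is a human osteosarcoma line, and 6 RNA sequencing libraries were made from it, 3 per group. Control cells carried a scramble shRNA and the other cells an shRNA against E4F1, a zinc finger transcription factor with ubiquitin ligase activity. In both groups, infection lasted 24 h, puromycin selection another 48 h, and RNA was taken at 72 h from cells grown with serum. The libraries came from 3 independent pools of cells per group, so errors and p-values measure the spread between pools of a single line. In such bulk libraries, a change in every cell and a change in the mix of cells cannot be told apart. The groups differ by the shRNA they carry, so loss of E4F1 and any other effect of either shRNA cannot be told apart.

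When Pol II stalls it can slide back, so that the end of the new RNA leaves the active site. TFIIS enters the polymerase and places acidic residues of its zinc ribbon at the active site, which stimulates Pol II to cut its own transcript and resume. SPT4 and SPT5 form DSIF, which holds Pol II paused together with NELF and, once CDK9 has phosphorylated it, travels with Pol II and helps it elongate.

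Each library held 14947085 to 16892139 reads in genes. The targeted gene E4F1 was 5.93-fold lower after E4F1 shRNA in CPM (counts per 1e6 reads in genes, TMM-scaled), with 233 to 297 reads per control library and 41 to 53 per E4F1 shRNA library. Among the controls, library 2 lay nearest to the E4F1 shRNA libraries in a cell cycle score, the mean log2 CPM of 34 replication and mitosis genes relative to all 6 libraries. The score was −0.18, 0.048 and −0.30 in the controls and 0.18, 0.18 and 0.074 after E4F1 shRNA. Of 12 markers of U2OS and the osteoblast lineage, COL1A1, SPARC, VIM and RUNX2 were present, TWIST1 had no read, and 5 lay under 1 CPM in every library (TWIST1, COL1A2, SP7, BGLAP and IBSP). The summed level of the 12 was 4882 to 5105 CPM in controls and 4354 to 4515 CPM after E4F1 shRNA, without overlap. VIM (log2 −0.25, edgeR adjusted p = 0.00494) and COL1A1 (log2 −0.16, edgeR adjusted p = 0.0422) fell, and the part of this in the results below was not tested. Summed levels of 5 epithelial markers were 14.3 to 15.7 CPM in controls and 14.6 to 16.7 CPM after E4F1 shRNA, with EPCAM called higher (log2 0.43, edgeR adjusted p = 0.0229) and CDH1 lower (log2 −0.41, edgeR adjusted p = 0.0442). Those of 5 blood markers were 2.27 to 6.54 and 3.03 to 4.39 CPM, and those of 5 endothelial markers 3.59 to 4.21 and 3.62 to 3.799 CPM. The T cell marker CD3E had no read in any library.

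TCEA1 was the member that differed most. Its transcript, which encodes the TFIIS form made in most tissues, measured 41.0, 42.3 and 38.0 CPM in the control libraries and 136, 150 and 141 CPM in the E4F1 shRNA libraries. Every E4F1 shRNA library was above every control library by a wide margin, and the spread within each group was small. The means were 40.4 ± 2.21 CPM (SD, n = 3) and 142 ± 7.31 CPM (SD, n = 3), a 3.52-fold higher level (log2 1.81, SE 0.063). The gene (ENSG00000187735.13, GRCh38 chromosome 8, 53966552 to 54022529, minus strand) ranked 4 from the top by log2 fold change among all 15765 genes tested. Its log2 fold change stayed between 1.77 and 1.86 when each library was left out in turn, and after adjustment for the cell cycle score it was 1.71. Since TCEA1 was chosen with this contrast known, its rank and these values are a description.

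The paralogues did not follow TCEA1. TCEA2 (chromosome 20, 64049836 to 64072347, plus strand), best known from testis, measured 13.7, 16.7 and 16.6 CPM in controls and 14.1, 12.8 and 13.2 CPM after E4F1 shRNA (log2 −0.23, SE 0.10). The groups overlapped, because control library 1 lay among the E4F1 shRNA libraries. TCEA3 (chromosome 1, 23381061 to 23424740, minus strand), the third paralogue, was barely expressed, with 19, 18 and 28 reads in controls and 18, 15 and 10 reads after E4F1 shRNA (log2 −0.67, SE 0.31). At such counts the spread of its controls (25.8% of the mean) was close to that of counting alone (21.5%), and the groups overlapped.

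**Figure D1:**
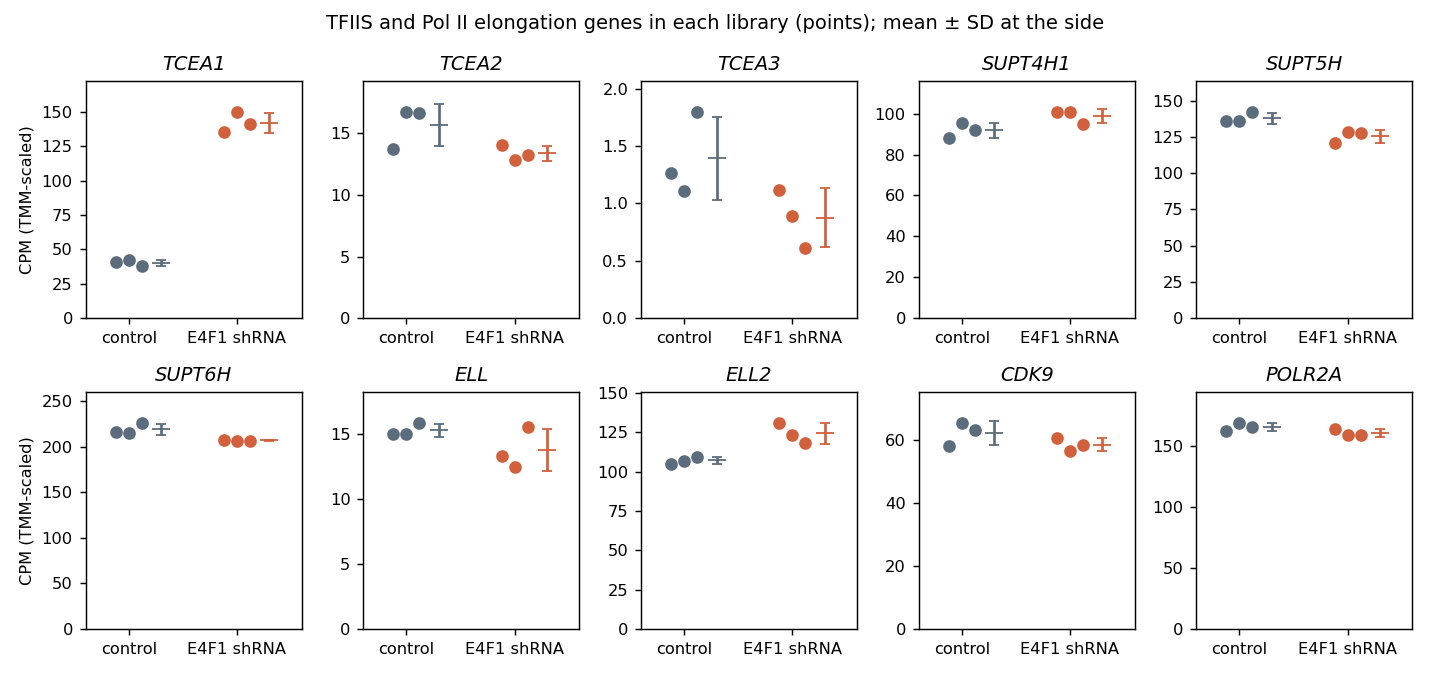
CPM of each member in each library (vertical axes from 0, points for the 3 libraries of a group, with mean ± SD beside them). TCEA1 goes from 40.4 to 142 CPM, ELL2 from 107 to 124 CPM without overlap, and TCEA3 from 1.39 to 0.874 CPM with overlap.

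The make-up of the TFIIS transcript pool therefore differed between groups. Per kilobase of exon, TCEA1 held 74.3%, 71.6% and 68.4% of the summed level of the 3 paralogues in control libraries and 90.4%, 92.1% and 91.6% after E4F1 shRNA. Exon lengths are those of all annotated transcripts merged, 4415 bases for TCEA1 and 4802 for TCEA2. The share of a gene whose long exons are rarely used is therefore understated, to an extent that was not tested. TCEA2 held 25.5% ± 2.41 in controls and 7.92% ± 0.698 after E4F1 shRNA (SD, n = 3 each), and TCEA3 3.11% ± 0.871 and 0.708% ± 0.222. None of these shares overlapped between groups. The 3 shares are parts of one sum, so the higher TCEA1 level lowers those of TCEA2 and TCEA3, and they are not separate results. In CPM the TCEA2 and TCEA3 groups overlapped, as given above.

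**Figure D2:**
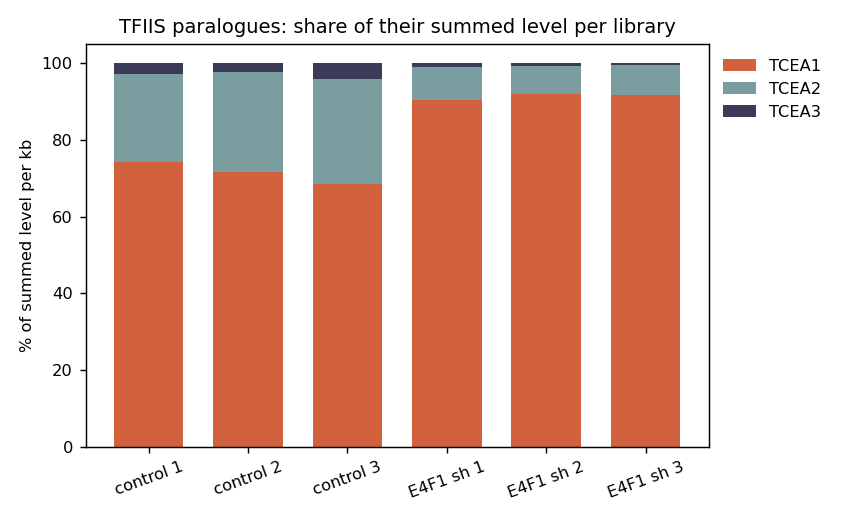
Share of each TFIIS paralogue in the summed level per kilobase of exon of the 3 genes (vertical axis, percent), 1 bar per library. TCEA1 takes 68.4% to 74.3% of the control bars and 90.4% to 92.1% of the E4F1 shRNA bars.

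POLR2A (chromosome 17, 7484366 to 7514616, plus strand) carries the catalytic centre and the C-terminal repeat domain (CTD) on which elongation factors gather. It measured 162, 169 and 166 CPM in control libraries and 164, 159 and 158 CPM after E4F1 shRNA (log2 −0.05, SE 0.050), with overlapping groups. TCEA1 per POLR2A, both per kilobase, went from 0.462 ± 0.0247 to 1.68 ± 0.112 (SD, n = 3 each).

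The DSIF subunits leaned in opposite directions by small amounts. SUPT4H1 (chromosome 17, 58345175 to 58353093, minus strand), the small zinc finger subunit, measured 88.0, 95.6 and 91.9 CPM in controls and 101, 101 and 94.8 CPM after E4F1 shRNA (log2 0.10, SE 0.057), and control library 2 lay above E4F1 shRNA library 3. SUPT5H (chromosome 19, 39436156 to 39476670, plus strand), the large subunit, measured 136, 136 and 142 CPM in controls and 120, 128 and 127 CPM after E4F1 shRNA (log2 −0.14, SE 0.053). Its groups did not overlap, but it was not past the threshold in the fit over all genes. Per kilobase the ratio of SUPT4H1 to SUPT5H was 2.67, 2.91 and 2.66 in controls and 3.44, 3.24 and 3.07 after E4F1 shRNA, also without overlap. SUPT4H1 overlaps the antisense gene TSPOAP1-AS1, and a longer gene model, AC004687.2, on its own strand. Reads shared by overlapping gene models are counted in neither, and how many SUPT4H1 lost to the longer model was not tested. SUPT4H1 had 1318 to 1549 reads in controls with strand used and 996 to 1135 when strand was ignored.

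SUPT6H (chromosome 17, 28662091 to 28702684, plus strand), the histone chaperone that rides with elongating Pol II, measured 216, 215 and 226 CPM in controls and 207, 207 and 207 CPM after E4F1 shRNA (log2 −0.08, SE 0.050). The groups did not overlap, but the gene was not past the threshold. CDK9 (chromosome 9, 127785679 to 127790787, plus strand), the kinase of P-TEFb that releases paused Pol II, measured 58.2, 65.6 and 63.4 CPM in controls and 60.7, 56.6 and 58.6 CPM after E4F1 shRNA (log2 −0.09, SE 0.064). Its groups overlapped.

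ELL and ELL2 suppress transient pausing within the super elongation complex, and ELL2 lay higher after E4F1 shRNA. ELL2 (chromosome 5, 95885098 to 95962071, minus strand) measured 105, 107 and 109 CPM in controls and 131.1, 123.3 and 118.3 CPM after E4F1 shRNA, a 1.16-fold higher mean (log2 0.21, SE 0.055), and the groups did not overlap. ELL (chromosome 19, 18442663 to 18522127, minus strand) was the less abundant and measured 14.96, 15.004 and 15.85 CPM in controls and 13.26, 12.47 and 15.53 CPM after E4F1 shRNA (log2 −0.15, SE 0.10), with E4F1 shRNA library 3 inside the control range. Per kilobase, ELL per ELL2 was 0.212 ± 0.00334 in controls and 0.165 ± 0.0258 after E4F1 shRNA (SD, n = 3 each).

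All 10 members passed the filter on low counts. In the edgeR quasi-likelihood fit over all genes, TCEA1 and ELL2 were called (adjusted p under 0.05) and both were higher, so 2 of 10 members were called, where 28.9% of all genes tested were called, 14.4% higher and 14.4% lower. The groups did not overlap for 4 members (TCEA1, ELL2, SUPT5H and SUPT6H), where they did not overlap for 41.8% of all genes. The median log2 fold change of the members was −0.09, against −0.01 over all genes. The members were chosen with this contrast known, and nothing is read from these counts. ELL2 was not called after adjustment for the cell cycle score (log2 0.20), and TCEA2 was called without control library 1 (log2 −0.31).

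Levels of the members could be compared with each other per kilobase of annotated exon, as CPM divided by exon length (RPKM). In control cells SUPT4H1 was the most abundant at 44.2 ± 1.83 RPKM. CDK9 (20.8 ± 1.26), SUPT6H (20.6 ± 0.591) and POLR2A (19.8 ± 0.407) came next, followed by SUPT5H (16.1 ± 0.431), ELL2 (14.6 ± 0.297) and TCEA1 (9.16 ± 0.502; SD, n = 3 throughout). TCEA2 (3.27 ± 0.359) and ELL (3.10 ± 0.101) were lower and TCEA3 lowest (0.396 ± 0.102). Of the 9 pairs of neighbours in this order, CDK9 with SUPT6H and TCEA2 with ELL overlapped across control libraries, and the other 7 pairs did not. After E4F1 shRNA the order differed mainly by TCEA1, which at 32.2 ± 1.66 RPKM stood at place 2, behind SUPT4H1 at 47.5 ± 1.64 RPKM. Exon lengths are those of all annotated transcripts merged, so a gene whose long exons are rarely used is understated.

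**Figure D3:**
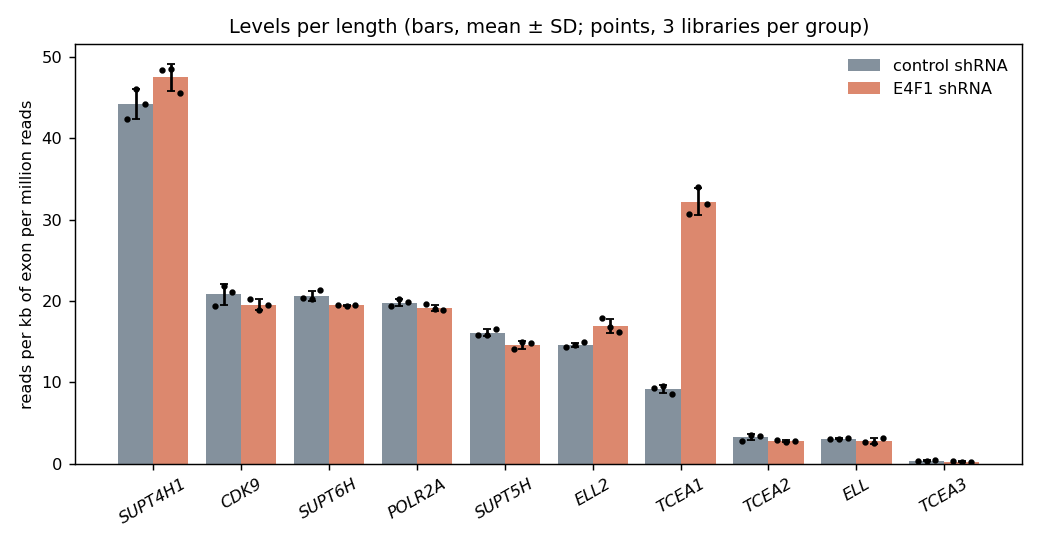
Level in RPKM (vertical axis from 0) of the 10 members, ordered by the control mean. Bars are means with SD and points the 3 libraries of a group, and TCEA1 goes from 9.16 to 32.2 while SUPT4H1 remains the highest at 44.2 and 47.5.

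None of the tested genes around TCEA1 was called higher. Within 200 kb on either side lie 13 other annotated genes, of which 4 were expressed well enough to test. LYPLA1, an acyl-protein thioesterase gene on the same strand, went from 118 ± 10.6 to 97.6 ± 6.57 CPM (SD, n = 3 each; log2 −0.27, SE 0.068, edgeR adjusted p = 0.00675). MRPL15, a mitochondrial ribosomal protein gene on the opposite strand, fell from 77.5 ± 2.22 to 45.5 ± 1.36 CPM (log2 −0.77, SE 0.060, edgeR adjusted p = 8.96e-08). ATP6V1H, a proton pump subunit gene, measured 48.3 ± 2.40 and 46.9 ± 4.0 CPM (log2 −0.04), and RGS20, a regulator of G protein signalling, 5.18 ± 0.957 and 4.16 ± 0.262 CPM (log2 −0.31, edgeR adjusted p = 0.166). The other 9 had at most 6 reads in any library.

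**Figure D4:**
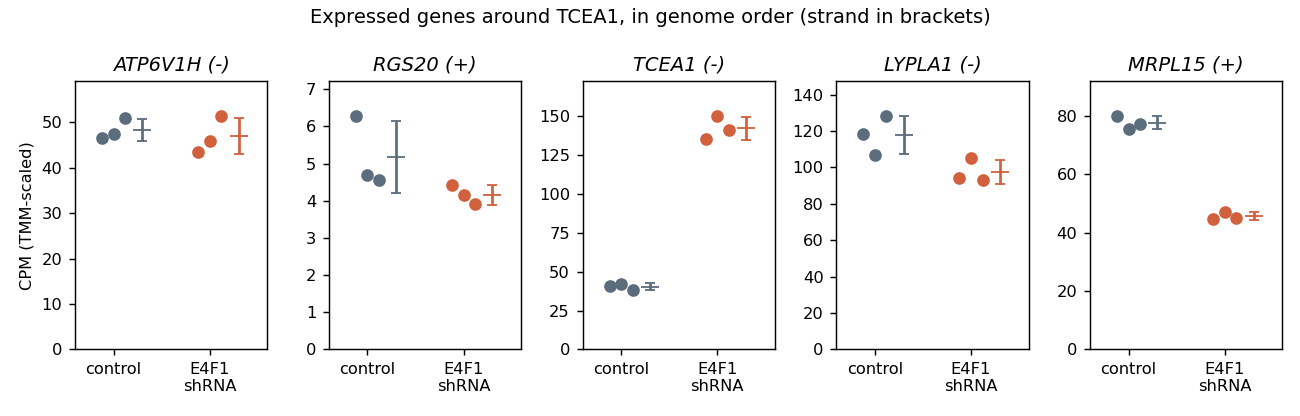
CPM (vertical axes from 0) of TCEA1 and the 4 tested genes within 200 kb, in genome order, with points for libraries and mean ± SD beside them. TCEA1 rises to 142 CPM, MRPL15 falls to 45.5 CPM and LYPLA1 to 97.6 CPM.

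Processed copies of TCEA1 took few reads. TCEA1P1 had none, TCEA1P3 had 0 to 2 reads per library, and TCEA1P4 had 15, 10 and 12 reads in controls and 11, 10 and 18 after E4F1 shRNA. TCEA1P2 had 3, 2 and 3 reads in controls and 8, 8 and 16 after E4F1 shRNA, a difference in the same direction as TCEA1. Reads that fit the gene and a copy equally well were counted in neither, so the TCEA1 level is understated to an extent that was not tested.

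The patterns nearest to that of TCEA1 over the 6 libraries belonged to other strong rises. Among 10072 well expressed protein-coding genes, ranked by Euclidean distance of centred log2 CPM, the nearest was MCU, the pore of the mitochondrial calcium uniporter, at a distance of 0.191. MCU measured 27.2, 26.1 and 25.1 CPM in controls and 86.6, 86.8 and 82.6 CPM after E4F1 shRNA. TMEM38B (0.383), NDUFAF3 (0.399), CDS1 (0.459) and CDK19 (0.582) followed. With 6 libraries in 2 groups, such nearness rests mostly on the size of the difference between groups.

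TCEA1 and 4 of these 5 genes, all but CDS1, share the heptamer CTTATCT in the annotated 3′ untranslated region (UTR). This heptamer came to notice in these same data, so its presence in the strongest rises is a description. In 12997 tested genes with an annotated 3′ UTR (1 transcript per gene), 10.3% held it on the sense strand; 40.9% of those were called higher and 7.69% lower, against 13.9% and 16.4% of the genes without it. Genes with it had longer 3′ UTRs, with a median of 3275 bases against 1002, and no correction for length was made here. TCEA1 was the only member with the heptamer, which starts 486 bases after the stop codon in a UTR of 1548 bases. The other 9 members had none, including ELL2 with 3773 bases of 3′ UTR.

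Copies in the genes most like TCEA1, and in an elongation gene that fell, are shown with 10 bases on each side (GENCODE release 29 transcripts, GRCh38) so that their surroundings can be compared. Capitals mark the heptamer, and of the 3 copies in AFF1 only the one nearest the stop codon is shown.
MCU, chr10:72886582-72886608, plus strand: cctttatataCTTATCTattgataatc
MCU, chr10:72886960-72886986, plus strand: cctattttttCTTATCTtaaattgaga
TMEM38B, chr9:105774110-105774136, plus strand: aattttttttCTTATCTacctgttata
NDUFAF3, chr3:49023219-49023245, plus strand: tgctttcactCTTATCTaccctttggc
NDUFAF3, chr3:49023237-49023263, plus strand: ccctttggcaCTTATCTtgcttatcaa
CDK19, chr6:110612947-110612973, minus strand: tctttctgaaCTTATCTacctggttat
AFF1, chr4:87137405-87137431, plus strand: gggagcgatgCTTATCTctcacagtgt

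Among 104 other elongation genes, 9 held the heptamer. NELFB and TCEANC, counted among the 104, have no 3′ UTR in the transcript used and could not hold it. Of these, 3 were called higher, POLR2K and INTS8 among them, 1 was called lower, 4 were not called and 1 was not tested. AFF1, a scaffold of the super elongation complex with 3 copies, fell (log2 −0.24). CDC73 (log2 0.16), TCEANC2 (log2 0.23) and UVSSA (log2 −0.15) were not called. POLR2F had too few counted reads to test, 1 to 7 per library. Reads shared by overlapping gene models are counted in neither, so a low count need not mean low expression. Whether POLR2F lost reads in this way was not tested. Over all tested genes with the heptamer, 40.9% were called higher and 7.69% lower. What the heptamer does was not tested.

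The rest of the elongation machinery was followed through 10 lists of genes grouped by function, 104 genes in all. These lists too were drawn up with earlier results of these data known, so their p-values are not independent evidence. Of the 99 tested, 15 rose and 12 fell, so 27.3% were called, close to the 28.9% of all genes, and their median log2 fold change was 0.01, against −0.01 over all genes. The cell cycle score given above differs between the groups, and after adjustment for it LEO1 and INTS14 were called lower and ERCC6 higher, and no other of the 99, where 936 genes were called in all. Without E4F1 shRNA library 1, 9 rose and 7 fell, without E4F1 shRNA library 2, 9 rose and 5 fell, and without control library 3, 10 rose and 7 fell. LEO1, SUPT16H, CDK13, CDK7, ICE2, TCEAL2, ERCC8, INTS7, INTS8 and INTS14 were among those called in each of the 6 fits that left out a library. INTS3 and TCEAL9 were called in 5, MNAT1, PHF3, AFF1 and INTS1 in 4, CTR9, AFF3, POLR2K, ELOA, TCEAL3 and CTDSP2 in 3, SSRP1 and ELOB in 2, and RECQL5 and PPP1R10 in 1.

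LEO1, a subunit of the PAF1 complex that loads on Pol II with SPT6, had the largest change of these genes. It measured 35.9, 39.6 and 37.0 CPM in controls and 19.3, 17.4 and 15.3 CPM after E4F1 shRNA, with no overlap. By edgeR it fell 2.16-fold (adjusted p = 9.73e-08; log2 −1.11, SE 0.087). The gene lies on GRCh38 chromosome 15, 51938025 to 51971806. Its partner CTR9 rose slightly (log2 0.16, edgeR adjusted p = 0.0324), while PAF1 (log2 0.05), CDC73 (log2 0.16), RTF1 (log2 0.15) and WDR61 (log2 −0.05) were not called.

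In the same list of 10 PAF1, SPT6-partner and FACT genes, 3 rose and LEO1 fell. FACT moves histones out of the way of Pol II, and its subunit genes SUPT16H and SSRP1 were both higher. SUPT16H went from 236 ± 20.5 to 321 ± 12.6 CPM (SD, n = 3 each; log2 0.44, edgeR adjusted p = 5.14e-05). SSRP1 measured 404, 468 and 377 CPM in controls and 513, 494 and 458 CPM after E4F1 shRNA (log2 0.23, edgeR adjusted p = 0.0187). Control library 2, which has the highest cell cycle score of the controls, lay above E4F1 shRNA library 3 for SSRP1. After adjustment for the score SUPT16H was at log2 0.24 and SSRP1 at log2 −0.04, and neither was called. The part of the cell cycle in these differences was not tested.

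Among 13 genes of P-TEFb, its 7SK inhibitor and the CTD kinases, 2 rose and 1 fell. CDK13, a kinase of the elongating CTD, rose from 98.0 ± 1.39 to 116 ± 3.98 CPM (SD, n = 3 each; log2 0.24, edgeR adjusted p = 0.00253). In the CDK-activating kinase of TFIIH, CDK7 fell (log2 −0.26) and its assembly factor MNAT1 rose (log2 0.21). The cyclin T genes CCNT1 (log2 0.13) and CCNT2 (log2 0.00) and the inhibitors HEXIM1 (log2 −0.08) and LARP7 (log2 0.16) were not called. Of these, HEXIM1 and LARP7 belong to the 7SK particle that holds P-TEFb inactive.

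Partners of the ELL proteins gave 2 rises and 1 fall among 9 tested. ICE2, a subunit of the little elongation complex that contains ELL, rose from 95.6 ± 3.40 to 115 ± 6.97 CPM (SD, n = 3 each; log2 0.27, edgeR adjusted p = 0.00273). AFF3 rose (log2 0.33) and AFF1 fell, while the central scaffold AFF4 had log2 −0.05. ELL3 had no read in any library.

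Of 13 tested genes for other Pol II subunits and TFIIF, POLR2K alone was called, at log2 0.21 (edgeR adjusted p = 0.0287). POLR2I, the subunit with a zinc ribbon akin to that of TFIIS, had log2 −0.22 (edgeR adjusted p = 0.0502). The 4 genes of NELF, which holds paused Pol II together with DSIF, lay between log2 −0.08 and 0.09, and none was called. Elongin, a Pol II activator that shares a domain with TFIIS, gave 2 falls of 3 tested, ELOA (log2 −0.20) and ELOB (log2 −0.20). Of all genes tested, 14.4% were called lower. After adjustment for the cell cycle score neither was called, with ELOA at log2 −0.05 and ELOB at log2 −0.11.

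Of 17 tested genes for proteins with a TFIIS domain or a TFIIS-like name, 4 rose and 2 fell. TCEAL2 rose from 3.67 ± 0.477 to 5.66 ± 0.392 CPM (SD, n = 3 each; log2 0.62, edgeR adjusted p = 0.00621). PHF3 (log2 0.19) and TCEAL9 (log2 0.28) were also among the rises. TCEAL3 (log2 −0.44) and PPP1R10 (log2 −0.18) fell. TCEANC (log2 −0.21) and TCEANC2 (log2 0.23), named for their likeness to TFIIS, were not called.

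Genes that act on stalled Pol II at DNA damage gave 2 falls of 6, ERCC8 (log2 −0.40, edgeR adjusted p = 0.0033), the receptor subunit of the CSA ubiquitin ligase, and RECQL5 (log2 −0.21, edgeR adjusted p = 0.0495). RECQL5 kept its direction but lost its call in 12 of 15 alternative fits, DESeq2 and limma-voom among them. The CSB gene ERCC6 had log2 0.18 and was called after adjustment for the cell cycle score (log2 0.43). Integrator, which ends transcription at paused polymerases, gave 2 rises and 3 falls of 14. INTS7 (log2 0.32) and INTS8 (log2 0.32) rose, and INTS14 (log2 −0.25), INTS3 (log2 −0.24) and INTS1 (log2 −0.23) fell. Of 10 CTD phosphatase and termination genes, CTDSP2 rose (log2 0.21) and none fell.

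**Figure D5:**
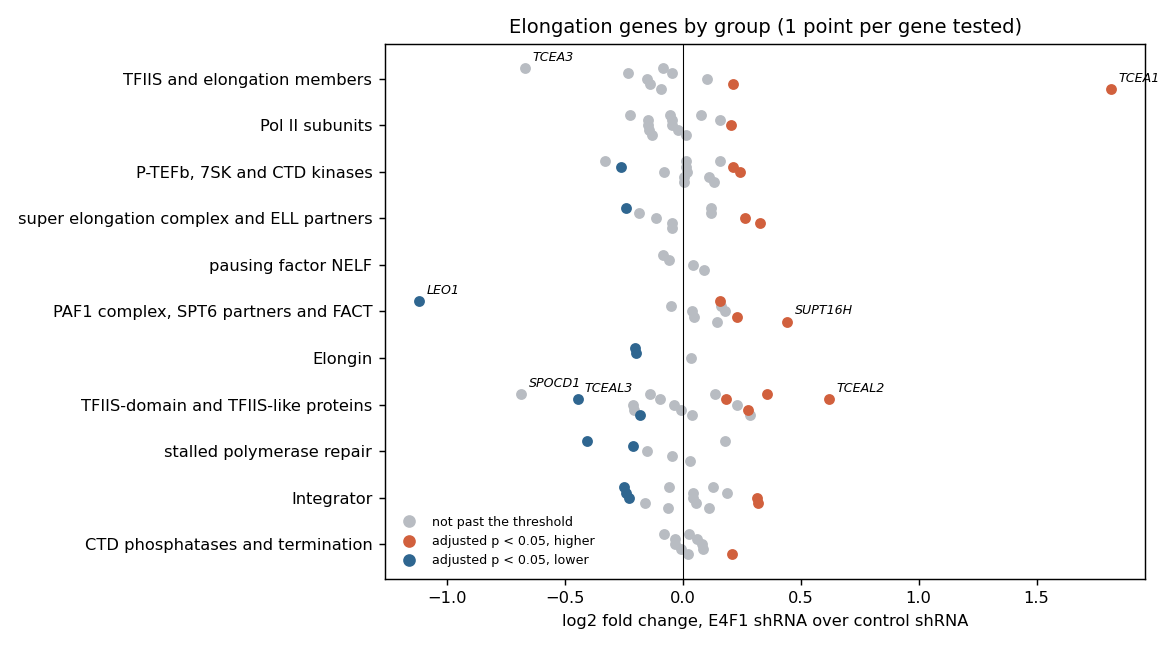
Log2 fold change of E4F1 shRNA over control shRNA (horizontal axis) of each tested gene in the member list and the 10 other lists, coloured by call. TCEA1 at 1.81 and LEO1 at −1.11 lie outside the range of −0.68 to 0.62 that holds the other genes.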

How the data were processed

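For each library the authors deposited a table of raw counts, laid out as STAR writes its gene counts. The submitters' processing notes name bcl2fastq 2.20, STAR 2.5.1b and GRCh38, with an annotation release not given in the sources used here. The reverse-strand column was used. Reads outside genes or in several places (27.1% to 31.7% of a table) stayed out of all totals. Symbols, exon lengths and 3′ UTRs came from GENCODE release 29 (57881 of 58219 identifiers matched without version). Groups were compared with edgeR 4.0.16 under R 4.3.3 (filterByExpr, TMM, quasi-likelihood F-test on group, two-sided), adjusted by Benjamini-Hochberg over 15765 genes at a threshold of 0.05. SE is the log2 fold change over the square root of F. Alternatives used DESeq2 1.42.0 and limma 3.58.1. Steps were tested on simulated data.

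The members and lists were chosen with earlier results of these data known. Genes named are the members, E4F1, copies of the TCEA genes, genes within 200 kb of TCEA1, up to 4 called genes per list and direction, the 5 patterns nearest to TCEA1 (average log2 CPM of at least 3), and partners of a member. Replicates differed by more than sampling noise (chi-square per degree of freedom 2.45 to 6.36), so each counted as 1 sample. Some genes of the lists are counted but not reported here by name.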

Additional observations from a re-analysis of the deposited data

Results flagged for a closer look

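Reads on the strand opposite to TCEA1 lie outside the measurement used above, and were higher in each E4F1 shRNA library than in each control library. There were 3, 2 and 2 such reads in controls and 15, 18 and 12 after E4F1 shRNA, the latter 45 together. As a share of the reads of both strands they made up 0.291% to 0.486% in controls and 0.516% to 0.707% after E4F1 shRNA. Over the 6 libraries the same share was 0.575% to 1.31% for SUPT4H1 and 2.12% to 3.59% for SUPT5H. Whether the TCEA1 reads come from a transcript of that strand was not tested. A processed pseudogene, AC100821.1, is annotated on that strand within TCEA1 and had no read in the reverse-strand counts.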

How the results depend on the processing

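Of 150 values of the members' log2 fold changes under 15 alternatives each (10 members), 148 kept their direction and their side of the threshold; the exceptions, ELL2 and TCEA2, are given above. Leaving out each library in turn gave 3031 to 5370 calls over all genes (4550 with all), 2 to 3 members called, 9 to 19 other elongation genes higher and 5 to 14 lower. The cell cycle score as a covariate gave 936 calls, 1 member, 1 other gene higher and 2 lower, and turned SSRP1 to log2 −0.0359; the score differs between groups, so the cell cycle and the shRNA cannot be told apart. With the replicate number as a block, 4865 genes, 2 members, 18 higher and 13 lower genes were called. Same-numbered libraries correlated at 0.00704, 0.0471 and 0.0477 in their deviations from group means, and control library 1 correlated best with E4F1 shRNA library 3 (0.077), so the numbers were not taken as pairs. DESeq2 called 3723 genes. The other scalings, filters, limma-voom and counts ignoring strand moved none of the 4 counts by over 1.5 times. Depth limits TCEA3, with 10 to 28 reads per library.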

Other observations

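Log2 fold changes were set against gene span in well expressed protein-coding genes. The median was −0.07 in 1602 genes under 10 kb, −0.02 in 2797 genes of 10 to 30 kb, 0.03 in 3516 genes of 30 to 100 kb and 0.06 in 2158 genes over 100 kb. In the shortest class 8.93% were called higher and 25.2% lower, and in the longest 26.4% and 12.9%. These values are across genes, which are not independent replicates, and no test was made.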
